A study of Mus musculus with 18 samples.

Results

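Resting bone marrow-derived macrophages (BMDMs) from mice without miR-146a (KO) were compared with resting BMDMs from mice whose miR-146a keeps its seed but has an altered 3′ region (3F). The comparison took 6 of the 18 RNA-seq libraries of the series, KO replicates 1 to 3 and 3F replicates 1 to 3, and covered the 21734 protein-coding genes of the count table, of which 11357 had enough counts to be tested. The other 12 libraries, resting wild-type (WT) BMDMs and BMDMs of all 3 genotypes given LPS, entered the fit to help estimate the spread. KO mice were homozygous for a deletion of mir-146a and 3F mice were homozygous for the altered allele, and all 3 genotypes retained wild-type miR-146b. All mice were of a 129/B6 mix and 6 to 7 months old. Marrow was grown for 8 to 9 days in medium with M-CSF at 10 ng/ml, a growth factor that turns marrow precursors into macrophages. Cells were harvested 16 h after a last change of medium, with no LPS in the resting groups and with 1 ng/ml LPS in the others. Each allele was made in its own V6.5 embryonic stem cell line, and the resulting mice were backcrossed to C57BL6/J and kept as separate colonies. The miR-146a allele and other sequence that differs between the colonies cannot be told apart here. There were 3 mice per genotype, but the labels do not tie a library to an animal, so p-values measure the spread between these libraries.

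A microRNA guides Argonaute proteins to messenger RNAs mainly through its seed, nucleotides 2 to 8, and pairing of its 3′ region can add to this. Transcription of miR-146a is switched on by NF-kB after Toll-like receptors meet ligands such as LPS, and miR-146a in turn represses Irak1 and Traf6, which carry the signal from those receptors to NF-kB. Interferons act on the same cells through Jak kinases and a complex of transcription factors that binds interferon-stimulated response elements (ISREs) in promoters of antiviral genes.

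The following sequences show what the 2 groups of BMDMs did and did not share: the seed, in capitals, was intact in the 3F design and in miR-146b, which KO cells also carry. The wild-type mature sequences are from RefSeq (build GRCm38.p6), miR-146a at chr11:43374435-43374456 on the minus strand and miR-146b at chr19:46342790-46342811 on the plus strand. The mimics are the study's synthetic oligos, and the 3F mimic differs from the wild-type mimic at 8 positions, from 13 to 20 counted from the 5′ end. miR-146b differs from miR-146a at 2 positions, 18 and 21. In the paper's small RNA sequencing of BMDMs, mature miR-146b appeared higher in KO cells, a rise it did not see in 3F cells.
mmu-miR-146a-5p: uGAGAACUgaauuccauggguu
mmu-miR-146b-5p: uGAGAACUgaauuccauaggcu
wild-type mimic: uGAGAACUgaauuccauggg
3F mimic: uGAGAACUgaauaagugucc

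Irak1 and Traf6 carry several matches to this shared seed in their 3′ UTRs. The annotated 3′ UTR of Irak1 holds 2 8mer sites and 1 shorter site, and that of Traf6 holds 4 8mer sites. In the examples, on the strand of the messenger RNA, the bases that match the seed and position 1 are in capitals. The Irak1 sites lie on the minus strand at chrX:74015393-74015414 and chrX:74015377-74015398, and the Traf6 sites on the plus strand at chr2:101697945-101697966 and chr2:101698009-101698030 (mm10).
Irak1 site 1: gactcagaggtcaaAGTTCTCA
Irak1 site 2: ttctcatgcttggaAGTTCTCA
Traf6 site 1: ccgctctggtgttgAGTTCTCA
Traf6 site 2: ccctggaaggcttaAGTTCTCA

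2 of the 6 libraries stood apart from their own group, and the counts, list medians and gene values the results turn on are therefore given with and without them. KO replicates held 14757885, 12147847 and 9147879 counts, and 3F replicates held 15896679, 15824426 and 4071084. A chi-square per degree of freedom compared the counts of replicates. It was 6.95 for KO replicates 1 and 2 and 109 and 100 for the pairs that included KO replicate 3, and it was 7.17 for 3F replicates 1 and 2 and 63.1 and 57.8 for the pairs that included 3F replicate 3. Counts were detected for 16278 genes in 3F replicate 3, the shallowest library, against 12880 to 14086 in the other 5, and 1725 genes had counts in 3F replicate 3 alone of the 6, against 103 to 305 for each other library. KO replicate 3 differed by expression of LPS-induced genes: of 1847 genes called higher with LPS in WT, 793 (42.9%) were at or above the lowest WT library with LPS in KO replicate 3, against 185 and 184 in KO replicates 1 and 2, 19 and 33 in 3F replicates 1 and 2, and 213 in 3F replicate 3. The labels describe these libraries no differently from the rest of their groups. KO replicate 3 is therefore the library labelled resting in which 793 of the 1847 LPS-induced genes reached the level of WT with LPS. The others did not, among them Mmp14, at 36.8 CPM against 279 to 414 CPM in WT with LPS. Clmp was likewise at 10.3 CPM against 37.8 to 40.9 CPM. Whether the label is right was not tested.

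In the fit of all 18 libraries, 1464 of 11357 genes (12.9%) were called at an adjusted p under 0.05 (edgeR quasi-likelihood test), 771 higher in KO (6.79%) and 693 lower (6.10%). Without KO replicate 3 the count was 930 (8.19%), without 3F replicate 3 it was 735 (6.47%), and without both it was 745 (6.56%). 414 genes (3.65%), 255 higher and 159 lower, were called in all 4 of these fits. Of the 771 genes called higher, 329 were also called without both libraries and all 771 kept their sign, while their median log2 fold change moved from 0.83 to 0.58. Of the 693 genes called lower, 208 were also called without both and 692 kept their sign, with a median that moved from −0.88 to −0.57. KO replicate 3 was the highest of the 6 libraries for 550 of the 771 higher genes, and 3F replicate 3 was the highest for 533 of the 693 lower genes. The 3 KO and 3 3F libraries did not overlap for 3375 genes (29.7%), among them 1395 of the 1464 called. In what follows, levels are in the order of replicates 1 to 3, and changes are log2 fold changes of KO over 3F ± SE from the fit of 18 libraries. Where a pair of changes or adjusted p-values is given for a gene, the second is from the fit without both replicate 3 libraries. When the 6 libraries were fitted alone, with their spread not shared with other groups, only 10 genes (0.0881%) were called.

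**Figure D1:**
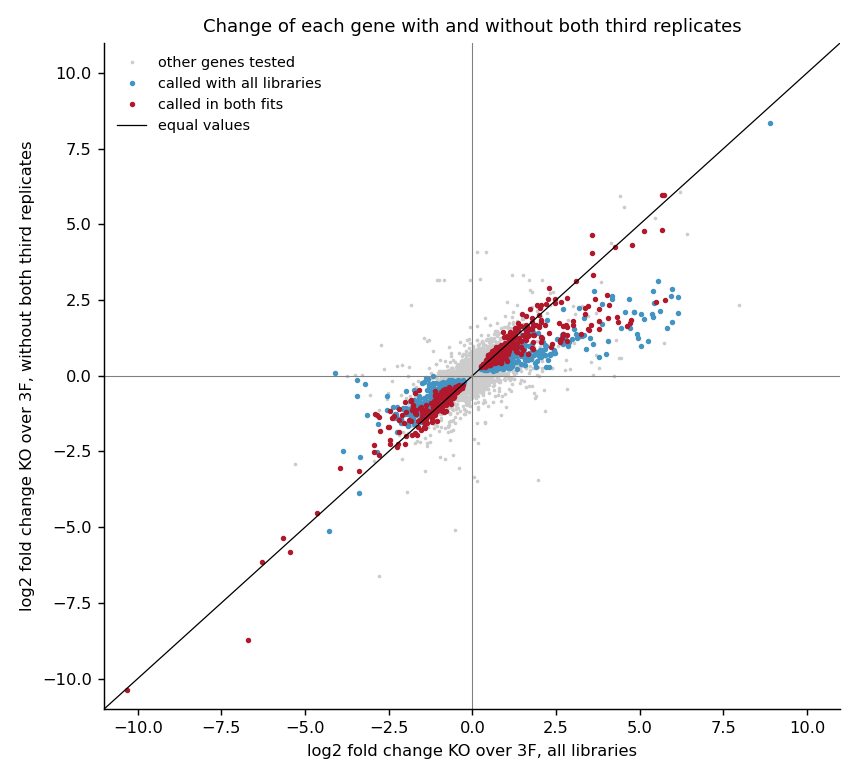
Each of the 11357 tested genes is a point at its log2 fold change of KO over 3F with all libraries (horizontal axis) and without KO replicate 3 and 3F replicate 3 (vertical axis), and the diagonal marks equal values. Red genes were called in both fits and blue genes with all libraries only. Most genes with a change above 2.5 lay below the diagonal, while a few such as Gdpd3, at 3.59 and 4.05, lay near it.

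Interferon-induced antiviral genes were higher in KO than in 3F BMDMs, and they were far higher in KO replicate 3 than in the other KO libraries. This list of genes, which sense or block viral RNA and proteins, had 34 members tested, of which 31 were called higher and 0 lower, with a median log2 fold change of 3.69 against 0.01 over all genes. Without both replicate 3 libraries 12 were called higher and the median was 1.5. The summed level of the list was 1939, 1525 and 19298 CPM (counts per 1000000 of TMM-scaled library size) in KO replicates 1 to 3, 870.5, 686 and 967 CPM in 3F replicates 1 to 3 and 666, 619 and 928 CPM in resting WT. All 3 KO libraries lay above the 3F and WT libraries, and KO replicate 3 lay within the 5943 to 24513 CPM of WT with LPS. The GTPase list, enzymes that attack the vacuoles of intracellular microbes, had 13 of 16 tested members called higher and 0 lower, and its median was 4.23, or 1.59 with 4 called without both libraries. The Ifi200 family, which includes DNA sensors, had 7 of 8 called higher with a median of 3.08, or 1.21 with 1 called without both.

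Ifit3 (ENSMUSG00000074896, chromosome 19, 34583531 to 34588731), an antiviral protein that acts with Ifit1 on viral RNA, stood at 55.8, 35.2 and 1198 CPM in KO replicates 1 to 3 and at 9.76, 7.19 and 12.6 CPM in 3F. The KO libraries were all above the 3F libraries, but KO replicate 3 was far above the other 2. The log2 fold change was 5.49 ± 1.12 (SE, adjusted p 0.00809), and without both replicate 3 libraries it was 2.45 ± 0.63 (adjusted p 0.0313). Zbp1 (ENSMUSG00000027514, chromosome 2, 173206612 to 173218923), a sensor of nucleic acids that can trigger cell death, was at 5.25, 3.29 and 115 CPM in KO and at 1.24, 0.290 and 0.468 CPM in 3F. It rose by 5.76 ± 1.21 (adjusted p 0.00877) and by 2.5 ± 0.60 without both libraries (adjusted p 0.0245). For Mx1 (ENSMUSG00000000386, chromosome 16, 97447035 to 97462907), a GTPase that blocks virus replication, the levels were 24.7, 16.0 and 922 CPM in KO and 4.23, 2.67 and 8.19 CPM in 3F. Its log2 fold change of 6.16 ± 1.36 (adjusted p 0.0107) was the largest of the antiviral list, yet without both libraries it was 2.59 ± 0.81 and was not called (adjusted p 0.0684). Ifit1, Ifit3b and Ifit1bl1, of the same family as Ifit3, likewise had fold changes of 4.84 ± 1.04, 5.42 ± 1.19 and 6.14 ± 1.52 with all libraries and of 2.1 ± 0.64, 2.41 ± 0.79 and 2.09 ± 1.08 without both, where none of these 3 was called. Oas2, which makes the second messenger that activates RNase L, was chosen after its values were seen. It had 20.9, 15.2 and 98.5 CPM in KO and 6.32, 4.17 and 6.32 CPM in 3F, with a log2 fold change of 3.01 ± 0.57 (adjusted p 0.00602) that was 1.81 without both libraries (adjusted p 0.00585).

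In the GTPase list, Iigp1 was at 5.19, 3.75 and 79.3 CPM in KO and 0.452, 0.579 and 1.17 CPM in 3F, and its log2 fold change of 5.55 ± 1.35 (adjusted p 0.0167) became 3.13 ± 1.34 (adjusted p 0.175) without both libraries. Tgtp2 was at 1.36, 1.22 and 34.9 CPM in KO and 0.339, 0.290 and 0 CPM in 3F, and was called with all libraries and not without both. Gbp2b, a guanylate-binding protein, differed among the KO libraries themselves, at 0.742, 24.2 and 386 CPM, while 3F libraries were at 0, 0.0579 and 2.11 CPM and WT libraries with LPS at only 0.273 to 0.513 CPM. The KO libraries with LPS were likewise uneven, at 0.758, 659 and 539.6 CPM. Its KO and 3F libraries overlapped although it was called (adjusted p 0.0253). In the Ifi200 family, Ifi211 was at 25.9, 16.2 and 222 CPM in KO and 7.68, 5.74 and 10.1 CPM in 3F, and was called with and without both libraries, at 3.54 ± 0.78 (adjusted p 0.0103) and 1.68 ± 0.45 (adjusted p 0.0376). Ifi205, Ifi208 and Ifi209 of this family had log2 fold changes of 5.97 ± 1.41, 5.94 ± 1.51 and 5.39 ± 1.16 with all libraries, and none was called without both.

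**Figure D2:**
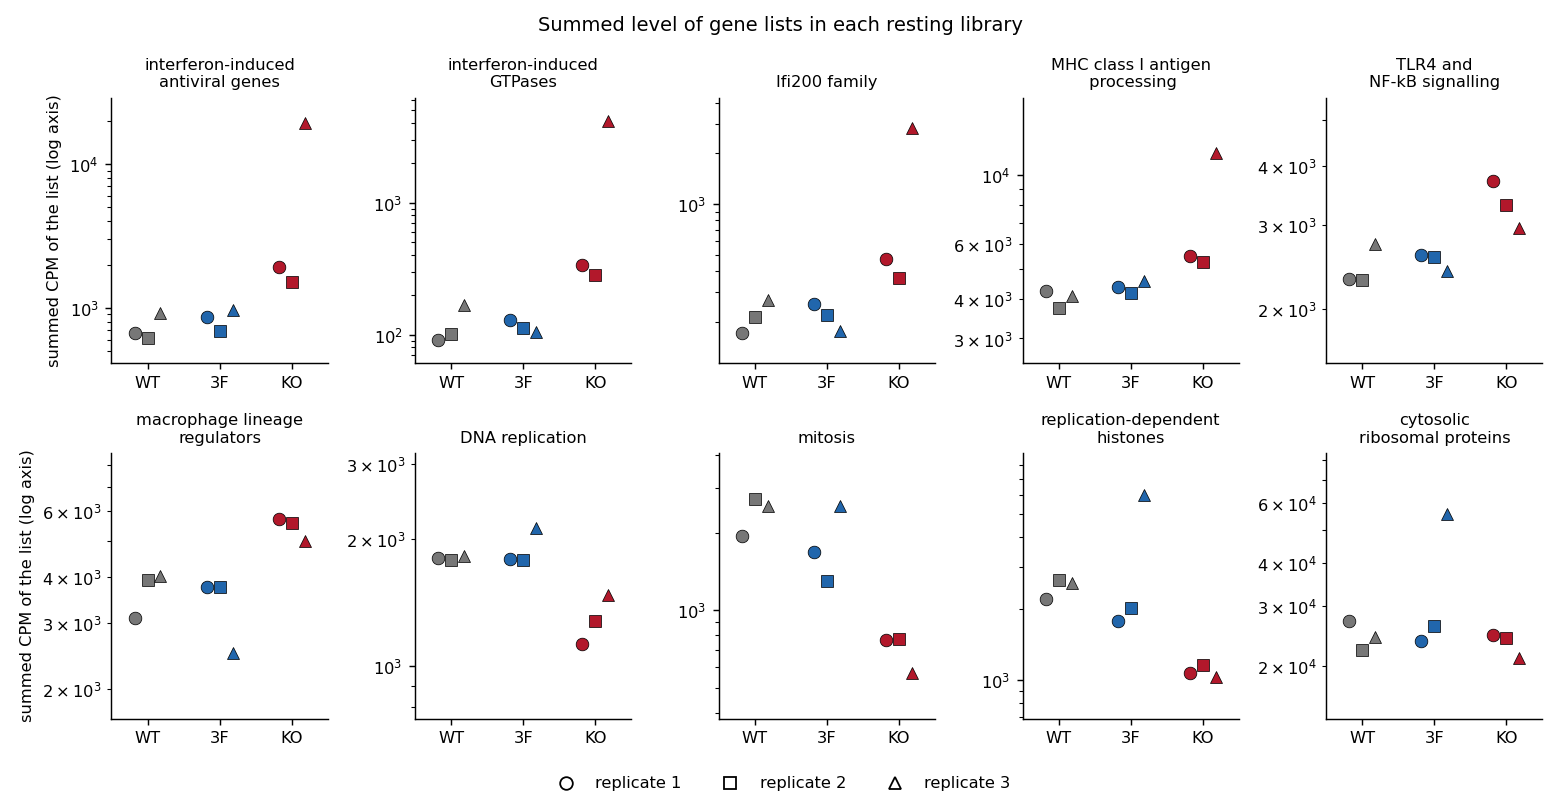
Each panel plots the summed CPM of 1 gene list (log axis) in resting WT, 3F and KO libraries, with the marker shape giving the replicate. KO replicate 3 reached 19298 CPM of antiviral genes, above all other resting libraries, while 3F replicate 3 was highest for histones, at 5978 CPM, and for ribosomal proteins. In the panel of TLR4 and NF-kB signalling the 3 KO libraries lay above the other 6 without KO replicate 3 being the highest.

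Of the 18 genes tested for interferon signalling itself, 7 were called higher and 0 lower, with a median of 0.69, and 5 were called without both replicate 3 libraries, with a median of 0.36. Irf7 (ENSMUSG00000025498, chromosome 7, 141262706 to 141266481), the factor that amplifies type I interferon production, was at 48.8, 32.0 and 815 CPM in KO and 12.8, 9.97 and 10.8 CPM in 3F. KO replicate 3 was again the outlying library, but KO replicates 1 and 2 were also above every 3F library, and the fold change was 4.73 ± 0.94 (adjusted p 0.00734) with all libraries and 1.86 ± 0.42 (adjusted p 0.019) without both. Stat2 was at 72.8, 53.8 and 357 CPM in KO and 29.3, 26.7 and 20.6 CPM in 3F. It rose by 2.64 ± 0.54, or 1.20 ± 0.32 without both (adjusted p 0.00822 and 0.0364). Irf9, the DNA-binding partner of Stat2, was described after its values were seen. It was at 62.5, 56.5 and 116 CPM in KO and 39.5, 34.2 and 38.9 CPM in 3F, a rise of 1.06 ± 0.20 with all libraries and of 0.71 ± 0.13 without both (adjusted p 0.00618 and 0.00568). Interferon-beta itself, Ifnb1, also described after its values were seen, was at 0, 0.153 and 0.674 CPM in KO and 0.0564, 0 and 0.468 CPM in 3F, at or near the limit of detection at this depth.

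Promoter sequence was examined because these genes moved together. An ISRE was searched as GAAA, any 2 bases and GAAA on both strands of windows from 250 bases before to 50 bases after the gene start (RefSeq, GRCm38.p6), which were found for 8909 of the 11357 tested genes. A gene was counted if any of its windows held the motif. It was present in 364 of the 8909 genes (4.09%), in 73 of 610 genes called higher (12%) and in 23 of 511 called lower (4.50%). Without both replicate 3 libraries, it was present in 27 of the 362 genes called higher with a window (7.46%). In that fit, 13 of the 209 called lower held it (6.22%). It was found in 15 of 25 antiviral genes with a window and in 10 of 11 of the GTPase genes, against 4.09% of tested genes. Counted by single window, 3.44% of all 32851 promoter windows held it. The promoter of Ifit3, at chr19:34583279-34583578 on the plus strand, is shown because it holds 2 matches, in capitals, here on the opposite strand. Such a match is a description of sequence and shows no binding.
Ifit3 promoter: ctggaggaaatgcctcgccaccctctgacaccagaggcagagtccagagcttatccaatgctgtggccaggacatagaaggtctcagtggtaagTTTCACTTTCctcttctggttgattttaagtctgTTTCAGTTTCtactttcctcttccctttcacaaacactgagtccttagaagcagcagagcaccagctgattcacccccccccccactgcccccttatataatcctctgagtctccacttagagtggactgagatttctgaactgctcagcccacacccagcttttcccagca

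Antigen presentation genes differed in how far they rested on KO replicate 3. For MHC class I processing, which loads peptides for cytotoxic T cells, 10 of 20 tested genes were called higher and 0 lower, with a median of 1.33. The share called was 50%, against 12.9% of all genes. Without both replicate 3 libraries the median was 0.39 and 1 was called, H2-Q4 (5%, against 6.56% of all genes). Tap1, the peptide transporter, was at 57.2, 54.9 and 398 CPM in KO and 39.8, 31.3 and 42.1 CPM in 3F, and its log2 fold change was 2.17 ± 0.58 with all libraries (adjusted p 0.0236) and 0.68 ± 0.31 without both (adjusted p 0.202). Nlrc5, the activator of class I genes, was called with all libraries at 1.74 ± 0.50 (adjusted p 0.0325), although its KO libraries at 47.4, 31.0 and 202 CPM overlapped those of 3F at 25.6, 26.8 and 31.8 CPM. H2-Q7, a nonclassical class I gene, had 2.66 ± 0.84 and 1.11 ± 0.60 (adjusted p 0.0477 and 0.294). MHC class II, which presents to helper T cells, followed another pattern. Cd74 (ENSMUSG00000024610, chromosome 18, 60803848 to 60812652), the class II chaperone, was at 70.0, 46.8 and 47.7 CPM in KO and 14.3, 20.4 and 12.2 CPM in 3F. KO replicate 3 lay between the other KO libraries, no libraries overlapped, and Cd74 rose by 1.78 ± 0.34 with all libraries and by 1.78 ± 0.40 without both (adjusted p 0.00621 and 0.0164). It was the only 1 of 8 class II genes called with all libraries (12.5%, near the 12.9% of all genes). Without both, Cd74, H2-Ab1 and Ciita were called, 3 of 8 (37.5%, against 6.56% of all genes). The median of the list then went from 0.66 to 1.12.

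The TLR4 and NF-kB pathway, the pathway that miR-146a is known to restrain, had members that were higher in KO, and in its summed level KO replicate 3 was the lowest KO library. Of 32 tested genes 11 were called higher and 0 lower (34.4%, against 12.9% of all genes), with a median of 0.44. Without both replicate 3 libraries 9 were called higher (28.1%, against 6.56% of all genes), with a median of 0.36. The summed level was 3712, 3304 and 2966 CPM in KO, 2598, 2574 and 2406 CPM in 3F and 2314, 2304 and 2744 CPM in WT. Irak3 (ENSMUSG00000020227, chromosome 10, 120141648 to 120202130), an inhibitor of Irak signalling, was at 48.2, 45.7 and 55.6 CPM in KO and 32.2, 31.2 and 15.9 CPM in 3F. It rose by 0.88 ± 0.19, or 0.59 ± 0.14 without both (adjusted p 0.0103 and 0.021). Myd88, the adaptor of most Toll-like receptors, was at 75.8, 67.5 and 118 CPM in KO and 53.9, 50.6 and 33.2 CPM in 3F. Its change (log2) was 0.90 ± 0.23 (adjusted p 0.0191) and, without both, 0.48 ± 0.19 (adjusted p 0.148). Bcl3, a nuclear IkB protein, was at 10.5, 11.7 and 6.85 CPM in KO and 4.97, 4.06 and 2.34 CPM in 3F, and passed the test both with all libraries at 1.27 ± 0.34 (adjusted p 0.0262) and without both at 1.32 ± 0.35 (adjusted p 0.0349). Nfkb1, the gene of the p50 subunit, was chosen after its values were seen and was at 175, 163 and 155 CPM in KO and 118, 115 and 125 CPM in 3F. It rose by 0.46 ± 0.11 (adjusted p 0.0165) and by 0.55 without both (adjusted p 0.0149). The receptor gene Tlr4 was at 284, 270.5 and 245 CPM in KO and 215, 250.3 and 257 CPM in 3F and was not called (adjusted p 0.429).

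Of 8 genes named as miR-146a targets in earlier work, 3 were called higher in KO than in 3F and 0 lower. The share called was 37.5%, against 12.9% of all genes, and the median was 0.56. Without both replicate 3 libraries 2 were called higher and 0 lower (25%, against 6.56% of all genes), with a median of 0.46. Irak1 (ENSMUSG00000031392, chromosome X, 74013914 to 74023918), the kinase whose 2 8mer sites are printed above, was at 74.4, 79.7 and 54.6 CPM in KO and 64.2, 62.5 and 43.8 CPM in 3F. The groups overlapped, and the log2 fold change of 0.28 ± 0.18 was not called (adjusted p 0.301), nor was that of 0.30 ± 0.17 without both (adjusted p 0.307). Traf6 (ENSMUSG00000027164, chromosome 2, 101678429 to 101701669), the ubiquitin ligase with 4 8mer sites, was at 62.1, 61.5 and 59.3 CPM in KO and 49.9, 49.6 and 32.8 CPM in 3F. Each KO library was above each 3F library, by little for 3F replicates 1 and 2, and the change of 0.45 ± 0.16 was not called (adjusted p 0.0699, and 0.204 without both). Notch1 (ENSMUSG00000026923, chromosome 2, 26457903 to 26516663), a receptor for cell contact signals, was called in all 4 fits. It was at 68.7, 74.6 and 67.1 CPM in KO, 37.7, 38.6 and 26.7 CPM in 3F and 34.7, 37.4 and 53.2 CPM in WT, a rise over 3F of 1.01 ± 0.16, or 0.93 ± 0.17 without both (adjusted p 0.00218 and 0.00518). Irak2, a kinase of the same complex as Irak1, was at 86.5, 83.3 and 94.3 CPM in KO and 62.7, 53.1 and 33.9 CPM in 3F. It rose by 0.80 ± 0.19 (adjusted p 0.0164) but missed the threshold without both at 0.58 ± 0.18 (adjusted p 0.0698). Relb, described after its values were seen, had 0.66 ± 0.22 with all libraries (adjusted p 0.056) and 0.72 ± 0.17 without both (adjusted p 0.0196).

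Genes with a seed match were called at shares near those of all genes. The 520 tested genes with an 8mer match in the longest annotated 3′ UTR had a median log2 fold change of 0.01, with 39 called higher (7.5%) and 27 lower (5.19%). The 1805 genes whose best match was a 7mer had a median of 0.03, and the 7489 genes without a 6mer match had a median of −0.01, with 6.36% called higher and 6.45% lower. Without both replicate 3 libraries the medians were 0.01 for the 8mer genes, 0.04 for the 7mer genes and 0.01 for genes without a 6mer. The UTRs of the classes differ in length, with medians of 2692.5, 2404 and 793 bases. None of the 13 tested genes of the microRNA machinery was called, and Ago2, which binds mature microRNAs, was at 99.1, 119.7 and 73.8 CPM in KO and 132, 107 and 73.5 CPM in 3F (adjusted p 0.754). Of the 9 tested genes that lie near the mir-146a gene, 1 was called (11.1%), near the 12.9% of all genes. Without both replicate 3 libraries 2 were called (22.2%, against 6.56% of all genes). The 1 called with all libraries was Ublcp1 (ENSMUSG00000041231, chromosome 11, 44454571 to 44470498), a phosphatase of the proteasome. Ublcp1 was at 7.36, 7.19 and 11.9 CPM in KO, 17.2, 16.0 and 22 CPM in 3F and 16.0, 15 and 18.2 CPM in WT. Its KO and 3F libraries did not overlap, and it fell by 1.06 ± 0.19 (adjusted p 0.00456), or by 1.16 ± 0.16 without both (adjusted p 0.000804).

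Of 31 tested cytokine and chemokine genes 5 were called higher (16.1%, against 6.79% of all genes) and 0 lower, with a median of 0.48 (0.40 without both, when 3 were called higher and 1 lower). Cxcl10, an interferon-induced chemokine that draws T cells, was at 24, 12.2 and 196 CPM in KO and 3.95, 2.38 and 2.11 CPM in 3F, with a change of 4.69 ± 0.99 (adjusted p 0.00906) that was 2.54 ± 0.81 without both (adjusted p 0.0744). Il18, the precursor of an inflammasome-released cytokine, was at 12.7, 11.1 and 43.6 CPM in KO and 4.23, 5.97 and 5.38 CPM in 3F. It rose in both fits, by 2.09 ± 0.46 and 1.25 ± 0.34 (adjusted p 0.0102 and 0.0406). Ccl5 was at 0.989, 1.22 and 28.3 CPM in KO and 0.734, 0.695 and 0.468 CPM in 3F, and was called with all libraries (adjusted p 0.0326) but not without KO replicate 3 (adjusted p 0.487). The inflammatory cytokines described next were picked after their values were seen. Tnf was at 97.9, 84.3 and 71.5 CPM in KO and 66.3, 68.5 and 64.4 CPM in 3F and was not called (adjusted p 0.256). Il1b was at 19.7, 11.2 and 4.49 CPM in KO and 4.85, 5.16 and 28.1 CPM in 3F, against 53.4 to 122 CPM in WT with LPS, and was not called (adjusted p 0.909). Il6 did not exceed 0.234 CPM in any of the 6 libraries and was at 0.273 to 0.733 CPM in WT with LPS, near the limit of detection in both. Il12b did not exceed 0.185 CPM in the 6 libraries, with 0 in KO replicate 3, and was at 2.09 to 9.69 CPM in WT with LPS. Ccl2, a chemokine for monocytes, went the other way in KO replicates 1 and 2, at 32.9, 26.2 and 123 CPM in KO and 89.0, 77.3 and 103 CPM in 3F. It fell by 1.46 ± 0.32 without both (adjusted p 0.0149) but was not called with all libraries (adjusted p 0.383).

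Among enzymes of arginine, nitric oxide, itaconate and NAD metabolism, 3 of 10 were called higher and 0 lower (30%, against 12.9% of all genes). These 3 were called in all 4 fits. Acod1 (ENSMUSG00000022126, chromosome 14, 103046977 to 103056573), which makes itaconate in activated macrophages, was at 203, 142 and 1139 CPM in KO and 47.9, 28.1 and 32.1 CPM in 3F, against 2462 to 3381 CPM in WT with LPS. The KO and 3F libraries did not overlap, and the fold change was 3.77 ± 0.61 (adjusted p 0.00227), or 2.21 ± 0.34 without both (adjusted p 0.00184). Nampt, the rate-limiting enzyme of NAD salvage, was at 352, 350.4 and 709.9 CPM in KO and 229.6, 245 and 244 CPM in 3F. The log2 fold change was 0.97 ± 0.22 and 0.59 ± 0.15 (adjusted p 0.0112 and 0.0266). Ass1, which feeds arginine synthesis, was at 4.39, 2.37 and 46.8 CPM in KO and 1.30, 1.10 and 1.40 CPM in 3F. Its change (log2) was 3.79 ± 0.86 and 1.54 ± 0.35 (adjusted p 0.012 and 0.0183). Nos2, the inducible nitric oxide synthase, described after its values were seen, was at 0.0618, 0.153 and 9.09 CPM in KO and 0.113, 0.0579 and 0.936 CPM in 3F and was not called (adjusted p 0.14).

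Some regulators of macrophage identity differed between KO and 3F. Of 15 tested, 3 were called higher and 1 lower (26.7%, against 12.9% of all genes), with a median of 0.39. Without both, 3 were called higher and 2 lower (33.3%, against 6.56% of all genes), with a median of 0.38. Csf1r (ENSMUSG00000024621, chromosome 18, 61100598 to 61132149), the receptor for the M-CSF in the medium, was at 3255, 3101 and 2786 CPM in KO, 1727, 1699 and 992 CPM in 3F and 1443, 1848 and 1941 CPM in WT. Every KO library exceeded every 3F and WT library, and Csf1r rose over 3F by 1.05 ± 0.18, or 0.91 ± 0.14 without both (adjusted p 0.00421 and 0.00202). Cebpb (ENSMUSG00000056501, chromosome 2, 167688915 to 167690418), a transcription factor of activated myeloid cells, was at 153, 146 and 159.8 CPM in KO, 58.0, 49.5 and 72.8 CPM in 3F and 74.6, 71.2 and 100.2 CPM in WT, with 1.36 ± 0.16 and 1.5 ± 0.17 (adjusted p 0.000252 and 0.000188). Id2, an inhibitor of bHLH factors, was the 1 that fell: it was at 158, 171 and 153 CPM in KO and 235, 262 and 339 CPM in 3F. On the log2 scale the difference was −0.79 ± 0.15 and −0.57 ± 0.15 (adjusted p 0.00602 and 0.0329). Spi1, which encodes PU.1 and was described after its values were seen, was called with all libraries at 0.72 ± 0.21 (adjusted p 0.0344) and not without both at 0.38 ± 0.17 (adjusted p 0.191). Itgax, the integrin subunit CD11c, was also described after its values were seen and rose in both fits, at 107, 154 and 78.3 CPM in KO and 57.6, 64.6 and 24.6 CPM in 3F, by 1.18 ± 0.29 and 1.12 ± 0.22 (adjusted p 0.0173 and 0.00808).

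Of 20 early response factors 3 were called higher (Jund, Ier3 and Klf2) and 0 lower. The share called higher was 15%, against 6.79% of all genes. Without both replicate 3 libraries 2 were called higher and 0 lower (10%, against 6.56% of all genes). Jund and Klf2 were not called there (adjusted p 0.123 and 0.331), and the KO and 3F libraries of Klf2 overlapped. Ier3, an NF-kB target that modulates cell survival, was at 87.3, 69.4 and 44.0 CPM in KO and 27.8, 36.7 and 33.2 CPM in 3F, highest in KO replicates 1 and 2, and rose by 1.04 ± 0.21, or 1.31 ± 0.19 without both (adjusted p 0.00753 and 0.0013). Among 22 glycolysis and hypoxia genes 2 were called higher (Hk2 and Hif1a) and 2 lower (Pdk1 and Ndrg1), or 18.2% against 12.9% of all genes. Without both replicate 3 libraries 1 was called higher and 3 lower (18.2%, against 6.56% of all genes). The median moved from 0.28 to 0.02, and Hif1a was not called (adjusted p 0.0621). Hk2, hexokinase, was at 136, 128 and 219.7 CPM in KO and 97.8, 95.7 and 73.3 CPM in 3F. The log2 fold change was 0.85 ± 0.17 and 0.47 ± 0.09 (adjusted p 0.00675 and 0.00808). Among 28 lysosome genes 2 were called higher (Ctsc and Ctsh) and 2 lower, among them Gusb. Among 16 scavenger and uptake receptors 1 was called higher, Axl, and 1 lower, Cd5l. These shares, 14.3% and 12.5%, were near the 12.9% of all genes, and without both replicate 3 libraries 1 lysosome gene was called lower and 1 receptor gene, Stab1, higher. Of 23 cholesterol synthesis genes 5 were called lower and 0 higher (21.7%, against 12.9% of all genes), with a median of −0.37. Without both replicate 3 libraries 0 were called. The largest changes among the 5 called with all libraries were those of Fdps, Lss and Tm7sf2, enzymes of this pathway, at −1.15 ± 0.31, −0.68 ± 0.17 and −1.08 ± 0.25, and without both −0.52 ± 0.23, −0.38 ± 0.14 and −0.57 ± 0.18. None of 8 mitochondrially encoded and 4 Y-linked genes was called. Of these mt-Co1, a subunit of cytochrome oxidase, was at 2571, 2521 and 2113 CPM in KO and 2212, 2254 and 1117 CPM in 3F, and the Y-linked helicase gene Ddx3y at 148, 163 and 90.9 CPM and 153, 172 and 194 CPM.

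**Figure D3:**
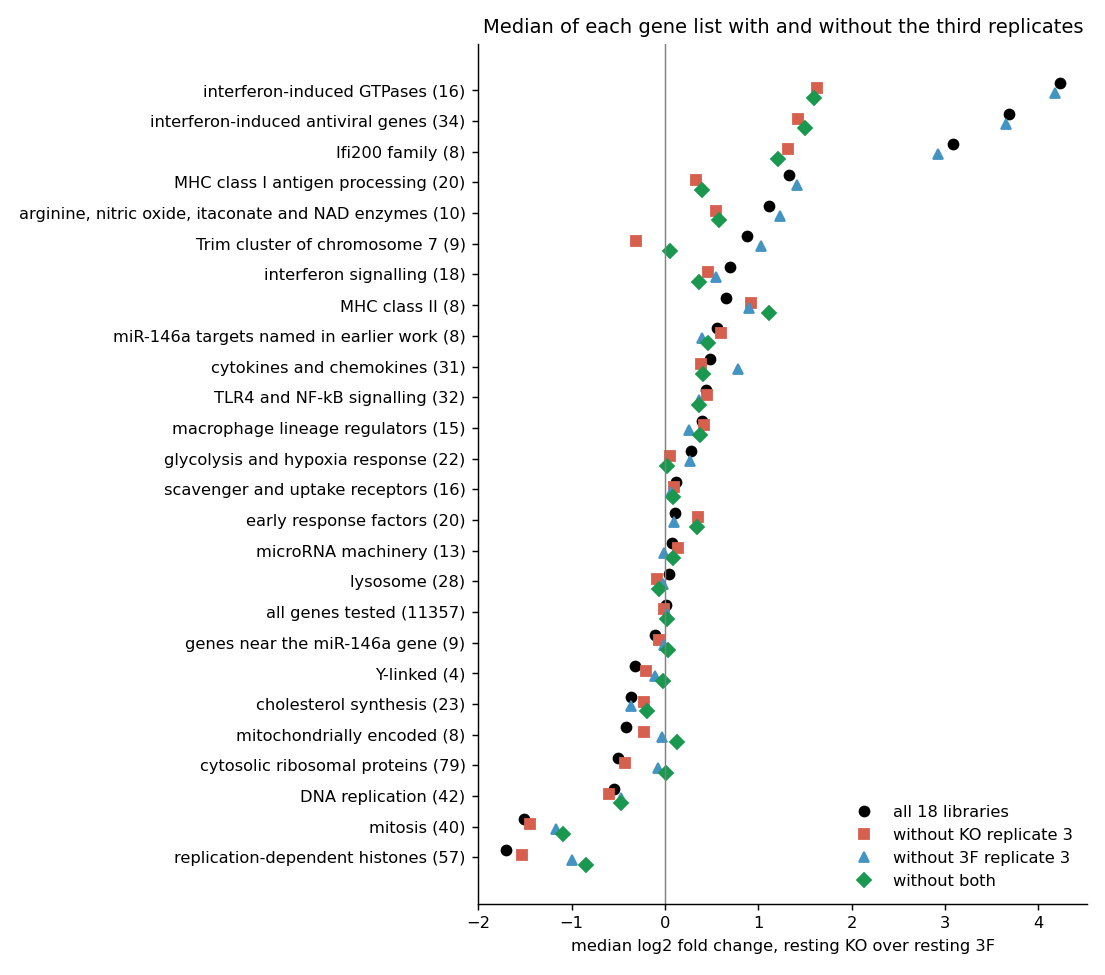
Each row gives the median log2 fold change of KO over 3F for 1 gene list (number of tested genes in brackets) with all 18 libraries, without KO replicate 3, without 3F replicate 3 and without both. The interferon lists moved from medians of up to 4.23 to medians of up to 1.63 when KO replicate 3 was left out, histone and ribosomal medians moved towards 0 when 3F replicate 3 was left out, and the TLR4 and NF-kB list stayed between 0.36 and 0.45.

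Proliferation genes were lower in KO than in 3F BMDMs. Of 42 DNA replication genes 18 were called lower and 0 higher, with a median of −0.55, and without both replicate 3 libraries 8 were called lower with a median of −0.47. Their summed level was 1129, 1275 and 1472 CPM in KO, 1793, 1776 and 2116 CPM in 3F and 1799, 1784 and 1817 CPM in WT, so KO lay below both other genotypes. Of 40 mitosis genes 35 were called lower and 0 higher, with a median of −1.51, against 6 and −1.10 without both, and their summed level was 763, 772 and 568 CPM in KO and 1689, 1299 and 2535 CPM in 3F. Here 3F replicate 3 was the highest 3F library and KO replicate 3 the lowest KO library. In RNA of whole cultures, fewer dividing cells and less of these messages per cell cannot be told apart.

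Rrm2 (ENSMUSG00000020649, chromosome 12, 24708241 to 24714146), a subunit of the enzyme that makes deoxynucleotides, was at 15, 17.7 and 6.96 CPM in KO and 40.9, 31.4 and 42.4 CPM in 3F. No libraries overlapped, and it fell by 1.51 ± 0.32, or by 1.12 ± 0.29 without both (adjusted p 0.00875 and 0.031). Mcm6, a subunit of the replicative helicase described after its values were seen, differed little among replicates, at 123, 132 and 136 CPM in KO and 185, 183 and 189.9 CPM in 3F. It fell by 0.51 ± 0.11 (adjusted p 0.011) and by 0.51 ± 0.13 without both (adjusted p 0.032). Tk1 and Tyms, which supply thymidine nucleotides, had changes of −1.40 ± 0.31 and −1.36 ± 0.40 with all libraries and of −0.89 ± 0.29 and −0.67 ± 0.31 without both. Pbk, a mitotic kinase, was at 6.80, 8.03 and 1.91 CPM in KO and 21.9, 18 and 55.7 CPM in 3F. It fell in both fits, by 2.41 ± 0.47 and 1.41 ± 0.32 (adjusted p 0.00631 and 0.0182). Bub1b, of the spindle checkpoint, and Spc24, of the kinetochore, had changes of −2.02 ± 0.42 and −2.0 ± 0.53, or −1.12 ± 0.34 and −1.05 ± 0.35 without both, where neither was called. Top2a and Mki67, common markers of dividing cells, were described after their values were seen. Top2a was at 88.7, 91.5 and 60.5 CPM in KO and 229, 183 and 327 CPM in 3F. Its change (log2) was −1.61 ± 0.33 (adjusted p 0.00851) and −1.17 ± 0.37 without both (adjusted p 0.0706). Mki67 was at 159, 151 and 78.8 CPM in KO and 228, 173 and 198 CPM in 3F and was not called (adjusted p 0.199, and 0.604 without both).

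An E2F motif was searched in the promoters as TTTGGCGC, TTTCCCGC, TTTGCCGC or TTTCGCGC on both strands, some of whose matches overlap. It was present in 424 of the 8909 tested genes with a window (4.76%), in 41 of 511 called lower (8.02%) and in 21 of 610 called higher (3.44%). Without both replicate 3 libraries it was present in 18 of 209 called lower (8.61%). It was found in 14 of the 35 DNA replication genes with a window and in 2 of the 32 mitosis genes. The promoter of Mcm6, at chr1:128359656-128359955 on the minus strand (RefSeq, GRCm38.p6), is shown because it holds 3 matches, in capitals, of which the first 2 overlap.
Mcm6 promoter: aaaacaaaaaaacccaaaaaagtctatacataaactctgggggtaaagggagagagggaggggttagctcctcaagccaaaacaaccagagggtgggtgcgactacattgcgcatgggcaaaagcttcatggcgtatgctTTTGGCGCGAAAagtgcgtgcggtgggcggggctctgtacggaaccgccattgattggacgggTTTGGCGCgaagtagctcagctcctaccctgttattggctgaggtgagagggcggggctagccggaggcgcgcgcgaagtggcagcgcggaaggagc

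Histone and ribosomal protein messages moved with 3F replicate 3. Of 57 replication-dependent histone genes 42 were called lower in KO and 0 higher, with a median of −1.71, and without both replicate 3 libraries 20 were called lower with a median of −0.85. The summed histone level was 1074, 1162 and 1036 CPM in KO, 1774, 2018 and 5978 CPM in 3F and 2198, 2632 and 2554 CPM in WT, so 3F replicate 3 was far above every other resting library, while KO lay below all of them. Hist1h4f was at 24.5, 28.9 and 20.9 CPM in KO and 61.6, 70.3 and 411 CPM in 3F. It fell by 2.84 ± 0.57, or by 1.28 ± 0.32 without both (adjusted p 0.00753 and 0.0287). Hist1h2bk and Hist1h3g had the same form, with 3F replicate 3 at 85.5 and 85.9 CPM against 15.3 and 12.8 CPM in 3F replicate 2, and fold changes of −2.90 ± 0.62 and −3.16 ± 0.69 that were −1.27 ± 0.35 and −1.28 ± 0.39 without both. Many histone genes are near copies of each other, so counts for a single copy are uncertain. Of 79 ribosomal protein genes 10 were called lower and 0 higher, with a median of −0.51. The share called was 12.7%, near the 12.9% of all genes, of which 6.10% were called lower. The summed level was 55615 CPM in 3F replicate 3 against 21142 to 26233 CPM in the other 5. Without both libraries the median was 0.01 and 3 were called, all lower (3.8%, against 6.56% of all genes called). Rpl39 was at 297, 274 and 232 CPM in KO and 288, 317 and 1499 CPM in 3F. On the log2 scale the difference was −1.39 ± 0.43 (adjusted p 0.0423) and −0.06 ± 0.12 without both (adjusted p 0.812). Rpl34 and Rps15a, at −1.30 ± 0.36 and −1.59 ± 0.38, were at −0.29 ± 0.19 and −0.47 ± 0.13 without both.

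Histone and ribosomal protein genes are short, and 3F replicate 3 differed from its group by exon length over the whole table. In the shortest of 5 equal groups of genes (199 to 1831 bases of exon) its median log2 difference from 3F replicates 1 and 2 was 0.43, and in the longest group (5448 to 123179 bases) it was −0.26. Of the shortest genes 8.58% were called lower in KO and 4.35% higher, and of the longest 4.05% were called lower and 7.88% higher. Without both replicate 3 libraries the shares called lower were 3.34% of the shortest and 2.46% of the longest. The part of exon length in any gene's difference was not tested.

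**Figure D4:**
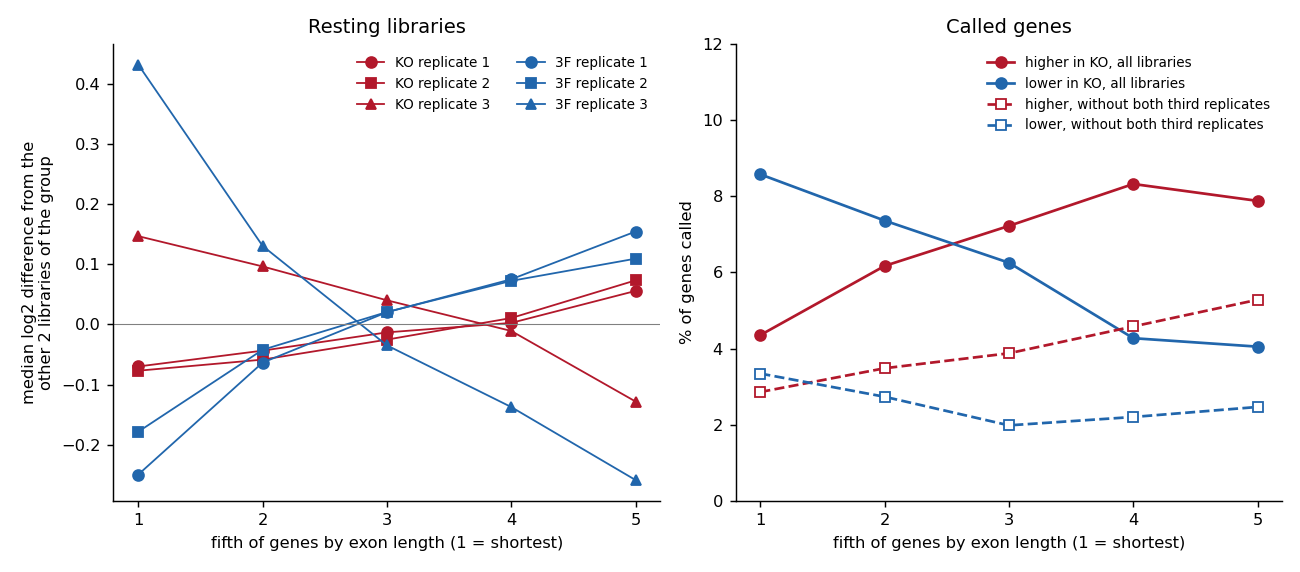
The left panel plots the median log2 difference of each KO and 3F library from the other 2 of its group over 5 equal groups of genes by exon length, and the right panel the percentage of genes called in each group. 3F replicate 3 ran from 0.43 in the shortest to −0.26 in the longest, and the share called lower fell from 8.58% to 4.05%, or from 3.34% to 2.46% without both replicate 3 libraries.

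The 10 genes called when the 6 libraries were fitted alone were also called in all 4 of the fits above. Higher in KO were Mmp14, Spata13, Gdpd3, Cmklr1, Plekha7 and Sorl1, and lower were Trim12a, Trim5, Slc15a2 and Cpe. Mmp14 (ENSMUSG00000000957, chromosome 14, 54431612 to 54445364), a membrane protease that cuts extracellular matrix, was at 36.3, 34.1 and 36.8 CPM in KO and 12.4, 11.9 and 8.19 CPM in 3F. It rose by 1.68 ± 0.35 (adjusted p 0.00851 in the fit of 18 libraries and 0.0493 in that of 6), or by 1.56 ± 0.39 without both (adjusted p 0.0297). Resting WT had 7.69, 5.72 and 21.8 CPM, and WT with LPS 279 to 414 CPM. Cmklr1 (ENSMUSG00000042190, chromosome 5, 113612354 to 113650426), the receptor for the chemoattractant chemerin, was at 33.8, 43.0 and 55.1 CPM in KO and 11.3, 11.6 and 7.73 CPM in 3F. The log2 fold change was 2.05 ± 0.42 (adjusted p 0.00809), or 1.76 ± 0.47 without both (adjusted p 0.0376). Sorl1 (ENSMUSG00000049313, chromosome 9, 41964720 to 42124297), an endosomal sorting receptor, was at 72.9, 52.6 and 61.5 CPM in KO and 15.9, 18.3 and 20.4 CPM in 3F. Its change (log2) was 1.79 ± 0.20 (adjusted p 0.000187), or 1.90 ± 0.24 without both (adjusted p 0.000487). Spata13 (ENSMUSG00000021990, chromosome 14, 60634001 to 60764556), a guanine nucleotide exchange factor, was at 37.7, 35.9 and 39.3 CPM in KO and 17.3, 15.6 and 16.4 CPM in 3F. It rose by 1.19 ± 0.17 (adjusted p 0.000896), or 1.18 ± 0.20 without both (adjusted p 0.00372). Cpe (ENSMUSG00000037852, chromosome 8, 64592542 to 64693054), carboxypeptidase E, was at 14.9, 20.3 and 18.7 CPM in KO, 73.6, 65.4 and 48.7 CPM in 3F and 69.7, 76.7 and 48.0 CPM in WT and fell by 1.81 ± 0.22 against 3F (adjusted p 0.000276), or by 1.96 ± 0.24 without both (adjusted p 0.000346).

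**Figure D5:**
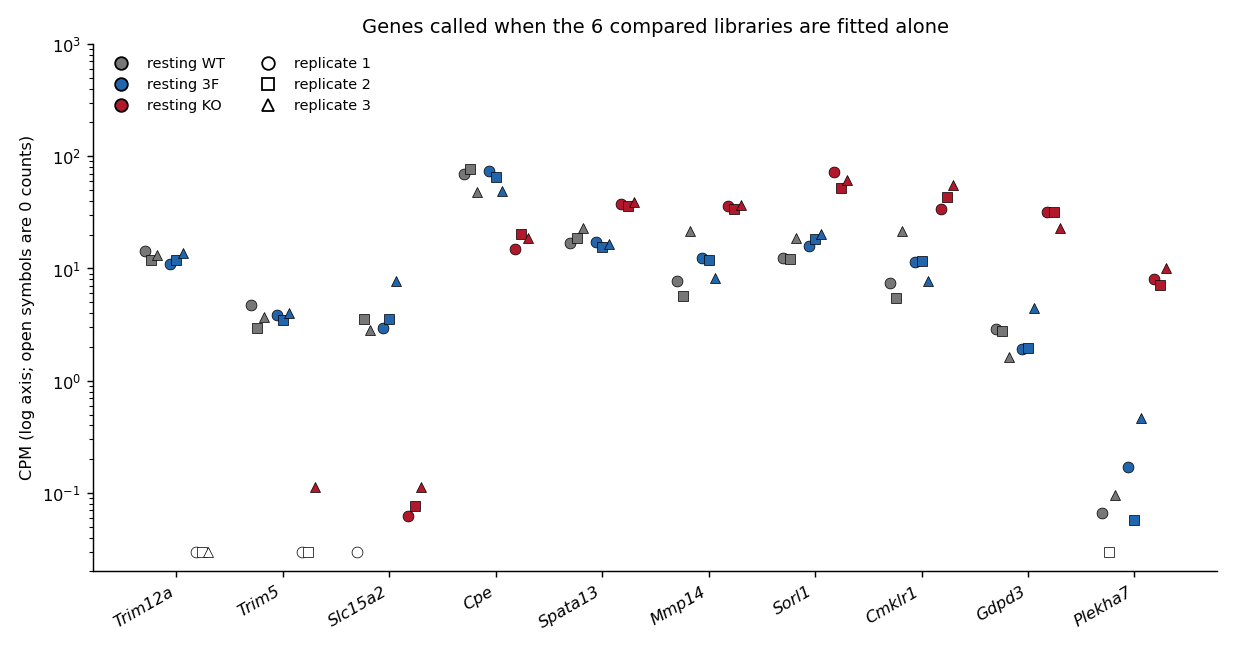
Levels of the 10 genes called with the 6 libraries fitted alone, in CPM on a log axis, with colour for genotype and marker shape for replicate, and open symbols at the bottom for libraries with 0 counts. For each gene the 3 KO libraries lie together and apart from the 3 3F libraries. For Trim12a, Trim5, Cpe, Gdpd3 and Plekha7 the WT libraries lie with 3F.

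4 of these 10 genes lie on chromosome 7. Trim12a (ENSMUSG00000066258, chromosome 7, 104299894 to 104315466), of a family of antiviral restriction factors, had 0 counts in all 3 KO libraries and was at 11, 11.8 and 13.8 CPM in 3F and 14.2, 11.9 and 13.1 CPM in WT, so it was at least 48.7-fold lower in KO against a floor of 3 counts per library (adjusted p 8.3e-08). Trim5 (ENSMUSG00000060441, chromosome 7, 104263386 to 104288094) was at 0, 0 and 0.112 CPM in KO and 3.84, 3.48 and 3.98 CPM in 3F, and the pooled counts, 1 in KO, gave a ratio of 141 with a 95% counting interval of 24.9 to 5607 (adjusted p 2.32e-06). Gdpd3 (ENSMUSG00000030703, chromosome 7, 126766334 to 126775649), a lysophospholipase D, was at 32.0, 31.8 and 22.9 CPM in KO and 1.92, 1.97 and 4.45 CPM in 3F. It rose by 3.59 ± 0.25 (adjusted p 1.04e-06). Plekha7 (ENSMUSG00000045659, chromosome 7, 116123485 to 116308376), a protein of cell junctions, was at 8.10, 7.11 and 10.1 CPM in KO and 0.169, 0.0579 and 0.468 CPM in 3F and was higher in KO by a pooled ratio of 53.8 (24.5 to 148, adjusted p 2.32e-06). Of 870 tested genes on chromosome 7, 48 (5.52%) were called in all 4 fits, against 3.65% over all chromosomes, where the share ran from 1.29% on chromosome 8 to 7.05% on chromosome 13, or 3.56% on chromosome 13 without its histone genes.

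Neighbouring genes of the Trim cluster on chromosome 7 moved in opposite directions. Of 9 tested, 4 were called higher in KO (Trim12c, Trim30a, Trim30c and Trim34b) and 2 lower (Trim5 and Trim12a), and without both replicate 3 libraries 3 were called higher and 4 lower. The median of the list changed sign with the libraries used, from 0.88 to −0.31 without KO replicate 3. Trim34b (ENSMUSG00000090215, chromosome 7, 104329471 to 104336909) was at 5.32, 4.59 and 19.5 CPM in KO, 0.226, 0.116 and 0.234 CPM in 3F and 0.0657, 0.151 and 0.0967 CPM in WT, and its log2 fold change was 5.67 ± 0.67, or 4.81 ± 0.44 without both (adjusted p 0.000252 and 1.71e-05). Its near copy Trim34a, chosen after its values were seen, went the other way in KO replicates 1 and 2, at 5.63, 4.43 and 16.4 CPM in KO and 15.8, 17.1 and 20.6 CPM in 3F. Trim30d, also chosen after its values were seen, was at 1.05, 0.841 and 34.6 CPM in KO and 12.2, 9.62 and 8.66 CPM in 3F, so that KO replicates 1 and 2 lay below 3F and KO replicate 3 above it. 6 of the 9 genes had an ISRE in the promoter window. Some members are near copies of each other, such as Trim34a and Trim34b, so counts for a single such copy are uncertain.

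Several other genes were low in KO. Slc15a2 (ENSMUSG00000022899, chromosome 16, 36750177 to 36784962), a peptide transporter, was at 0.0618, 0.0765 and 0.112 CPM in KO and 2.94, 3.53 and 7.73 CPM in 3F, a pooled ratio of 47.3 (15.9 to 232, adjusted p 0.00988), but WT replicate 1 also had 0 counts beside 3.54 and 2.80 CPM in the other WT libraries. Kif21a (ENSMUSG00000022629, chromosome 15, 90933276 to 91049948), a kinesin, was at 0.0618, 0.153 and 0.112 CPM in KO, 5.59, 7.24 and 1.17 CPM in 3F and 7.69, 6.25 and 0.0967 CPM in WT, so its level also differed within WT, and the pooled ratio of 3F to KO was 55.7 (21.4 to 206, adjusted p 0.0174). Lrmda (ENSMUSG00000063458, chromosome 14, 22019712 to 23056085) was at 2.29, 1.76 and 3.03 CPM in KO and 8.47, 15.5 and 33.2 CPM in 3F. It fell by 2.96 ± 0.53 (adjusted p 0.00479), or by 2.52 ± 0.55 without both. Mns1 (ENSMUSG00000032221, chromosome 9, 72438011 to 72462025), a protein of cilia and flagella, was at 0.309, 1.45 and 0.112 CPM in KO and 4.18, 4.17 and 7.49 CPM in 3F. It fell by 2.93 ± 0.64 (adjusted p 0.0102), or by 2.28 ± 0.63 without both (adjusted p 0.0421). Gm14085 (ENSMUSG00000079071, chromosome 2, 122484941 to 122528040) was the opposite, at 5.93, 5.35 and 27.7 CPM in KO and 0.282, 0.116 and 1.40 CPM in 3F, with a change of 5.14 ± 0.75, or 4.78 ± 0.39 without both (adjusted p 0.00125 and 4.93e-06).

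Set beside the LPS response of WT BMDMs, which shares no library with KO against 3F, the resting difference lay mostly in the same direction. In WT 3240 genes (28.5%) were called between LPS and resting, and 806 of them were also called in KO against 3F, or 55.1% of the resting calls and 24.9% of the WT calls. Of these 806, 765 (94.9%) had the same direction, 484 higher and 281 lower in both. Without both replicate 3 libraries 515 genes were called in both, and 423 of them (82.1%) had the same direction. Of the 92 others, 67 were higher in KO than in 3F yet lower with LPS in WT. This is a description of direction with no test.

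Between KO and 3F with LPS 441 genes (3.88%) were called, 172 higher and 269 lower, against 1464 at rest, but the order of these counts depended on the resting libraries in the fit. With the same LPS libraries, 759 genes (6.68%) were called with LPS and 930 at rest without resting KO replicate 3. The counts were 730 (6.43%) and 735 without resting 3F replicate 3, and 1389 (12.2%) and 745 without both. In the fit of 18 libraries the antiviral list had a median of 0.69 with LPS and 0 called. Its summed levels with LPS were 17681 to 23051 CPM in KO and 9713 to 13607 CPM in 3F, without overlap. The spread in that fit takes in resting KO replicate 3, and the antiviral calls with LPS are not given here for fits without it. DNA replication genes had a median there of −0.55 with 15 of 42 called lower. A direct test of the resting difference against the LPS difference called 2 genes (0.0176%), with resting and LPS libraries taken as independent. Clmp (ENSMUSG00000032024, chromosome 9, 40685962 to 40785319), an adhesion molecule, was at 17.7, 11.2 and 10.3 CPM in resting KO and 2.65, 2.43 and 1.64 CPM in resting 3F, but at 51.9, 58.9 and 46.1 and 48.9, 44.4 and 43.0 CPM in KO and 3F with LPS. The resting fold change of 2.46 ± 0.22 (adjusted p 1.32e-05) exceeded that with LPS by 2.26 ± 0.28 (adjusted p 0.00582). Arhgap22 (ENSMUSG00000063506, chromosome 14, 33214026 to 33369934), a GTPase-activating protein of Rac1, was at 52.7, 54.3 and 51.8 CPM in resting KO and 48.0, 52.8 and 55.3 CPM in resting 3F, with no difference called (adjusted p 0.891), and at 5.85, 5.21 and 6.70 and 13.4, 11.5 and 15 CPM in KO and 3F with LPS. The 2 differences were 1.18 ± 0.17 apart (adjusted p 0.0188).

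Markers were used to check the cell type. The 8 macrophage markers were all expressed, with summed levels of 60757, 60518 and 62440 CPM in KO and 42652, 47784 and 62329 CPM in 3F, mostly from Lyz2. Itgam, the integrin subunit CD11b, was called lower in KO in both fits, at 166, 154 and 129.9 CPM in KO and 248, 255 and 174 CPM in 3F, with changes of −0.59 and −0.63 (adjusted p 0.0185 and 0.00733). Adgre1, the F4/80 antigen, was at 1803, 1797 and 1134 CPM in KO and 1589, 1798 and 1996 CPM in 3F (adjusted p 0.502), and Fcgr1, a receptor for immunoglobulin that interferon also induces, was at 236, 206 and 1136 CPM in KO and 189, 184 and 215 CPM in 3F (adjusted p 0.0651). Markers of B cells, T or NK cells, dendritic cells, erythroid cells and mast cells or basophils summed to at most 4.45 CPM for any list in any of the 6 libraries, with the highest value of each list in 3F replicate 3. Ly6c2, a monocyte marker, was at 3.09, 3.29 and 28.5 CPM in KO and 1.24, 1.22 and 1.64 CPM in 3F, while Ccr2, another monocyte marker, was at 36.3, 44.2 and 28.3 CPM in KO and 21.2, 22.4 and 37.0 CPM in 3F. The 11 neutrophil markers summed to 64.7, 86.6 and 120 CPM in KO and 46.6, 69.7 and 96.5 CPM in 3F, highest in replicate 3 of each. Most of this came from 2 genes that moved differently. S100a8 was at 10.8, 16.7 and 48.3 CPM in KO and 8.92, 16.7 and 44.0 CPM in 3F. Mmp8 was at 49.0, 57.9 and 66.8 CPM in KO and 32.7, 42.0 and 28.1 CPM in 3F (adjusted p 0.0331, and 0.182 without both). The neutrophil antigen Ly6g was at 0 in all 6 libraries. The endothelial list reached 33.5 CPM in KO replicate 3 against 5.27 to 11.7 CPM in the other 5 libraries, and the megakaryocyte, fibroblast or stromal and osteoclast lists did not exceed 16.4 CPM. The part of cell composition in the gene lists was not tested.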

How the data were processed

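Directional, rRNA-depleted RNA-seq libraries of 18 BMDM samples were available. The authors trimmed reads with cutadapt 1.8.3, aligned them to mm10 with HISAT2 2.1.0 and deposited raw counts per protein-coding gene made with featureCounts 1.5.3, by strand and above a minimum mapping quality (Gencode M15). Counts were used as deposited. The study states no test of differential expression. Genes were filtered with filterByExpr, scaled by TMM and tested with the quasi-likelihood test of edgeR 4.0.16 (R 4.3.3), with all 18 libraries in one fit of 6 groups, and genes were called at a Benjamini-Hochberg adjusted p under 0.05 over 11357 genes. Errors are standard errors. The script was tested on simulated data. An exact permutation test of 3 against 3 libraries cannot give a p under 0.1 and was not used. Intervals cover counting error only.

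Named genes were Irak1 and Traf6, the 6 higher and 6 lower called genes with the largest change and no overlap, the 8 higher and 8 lower of those also called without KO replicate 3 and without 3F replicate 3, up to 3 genes per list, and genes called in the resting minus LPS difference. Members and lists were chosen with earlier results of these data known. Gene positions are from Gencode M21 on mm10 and sequences from RefSeq and the study's oligos. miR-146a itself is not in the table, so its deletion was not checked here. Some genes that meet these rules are not reported here.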

Additional observations from a re-analysis of the deposited data

Results flagged for a closer look

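2 genes had a difference between KO and 3F that itself differed between resting and LPS-treated cells, by the interaction term of the edgeR fit. For Clmp the log2 fold change was 2.26 higher at rest than with LPS, and for Arhgap22 it was 1.18 higher at rest. Their values by library are given in the report.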

How the results depend on the processing

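The number of genes called between resting KO and 3F depended on how the spread was estimated and on the replicate 3 libraries. Against 1464 in the fit of 18 libraries, 10 genes were called with the 6 libraries alone (1824 at an unadjusted p under 0.05), 285 with the 9 resting libraries and 2916 with limma-voom and quality weights. Leaving out a replicate, or both KO replicate 3 and 3F replicate 3, gave 735 to 1818. In settings chosen after seeing the data, the 6 libraries alone gave 9 less KO replicate 3, 16 less 3F replicate 3 and 2390 less both. DESeq2 gave 2094, its size factors in edgeR 1479 and no filter on low counts 1308. The resting minus LPS difference called 2 genes, 4 with no filter, 27 with DESeq2 and 118 with limma-voom, and 0 to 6 with replicates left out. The overlap of 806 with the LPS response of WT was 1673 with limma-voom and 515 to 850 with replicates left out. The cause of these changes was not tested. Of 101 named genes (99 with DESeq2) none that was called reversed in these settings, while some that were not called changed sign, such as Nos2, from 3.77 to −0.79 without KO replicate 3; 73 lost their call with the 6 libraries alone and 39 without both replicate 3 libraries. A replicate block gave 1279 calls (4 named genes lost and 1 gained the call); same-numbered KO and 3F libraries correlated at 0.0154, 0.151 and 0.0982 in their deviations, KO replicate 1 correlated best with 3F replicate 2 (0.104), and the numbers were not taken as pairs. Same-numbered resting and LPS libraries of a genotype correlated at 0.0283 to 0.318. Every resting library except KO replicate 3 correlated best with the LPS library of its own number. Resting KO replicate 3 correlated best with another number (0.121). The labels do not say that same-numbered libraries share an animal. A replicate block within genotype, chosen after seeing the data, called 2 genes in the resting minus LPS difference, among them Clmp (2.26, adjusted p 0.0496) and not Arhgap22 (1.19, adjusted p 0.147). Low counts in 3F replicate 3 limit single genes there.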
